A study of Homo sapiens with 4 samples.

Results

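MiR-148a, miR-32 and miR-375 are microRNAs tied to the androgen receptor in prostate cells, and they were followed here in PC-3 cells with and without apelin. PC-3 is an established prostate cancer line from a bone metastasis that grows without androgen and is known for lacking the receptor. All groups were PC-3 cells in DMEM with 10% fetal bovine serum. The control group (2 libraries, control 1 and control 2) received no treatment, and the apelin group (2 libraries, apelin 1 and apelin 2) received 10 μg/mL of apelin, a peptide ligand of the APJ receptor, for 24 h. No cell line with an active androgen receptor, no androgen treatment and no messenger RNA was analysed here, so the levels describe PC-3 alone. The entries were chosen by name: every listed mature miRNA of miR-148a, miR-32 or miR-375. This gave 3 of the 1096 entries, miR-148a-3p, miR-32-3p and miR-375-3p.

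A miRNA is cut from one arm of a hairpin precursor, the 5p or the 3p arm, and finds its target messenger RNAs mainly through its seed, bases 2 to 8 from its 5′ end. The androgen receptor is a hormone-activated transcription factor that drives the luminal program of the prostate, and miR-148a, miR-32 and miR-375 have been reported as higher in prostate cells where it is active. MiR-148a has been reported to repress the cullin regulator CAND1 and the DNA methyltransferase DNMT1. MiR-32 has been reported to repress the growth inhibitor BTG2. MiR-375 is best known for control of insulin release in pancreatic islets and is also carried by luminal and neuroendocrine prostate cells.

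The RefSeq sequences (GRCh38.p14) are shown because the seed decides which other miRNAs can act on the same sites. Capitals mark the seed, and miR-148b-3p and miR-152-3p are given since they share it with miR-148a-3p. MiR-32-5p, the other arm of the MIR32 hairpin, is given to show that its seed is not that of the arm that was counted.
miR-148a-3p: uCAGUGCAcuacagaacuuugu
miR-148b-3p: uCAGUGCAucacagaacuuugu
miR-152-3p: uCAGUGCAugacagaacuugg
miR-32-3p: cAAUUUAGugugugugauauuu
miR-32-5p: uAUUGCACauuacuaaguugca
miR-375-3p: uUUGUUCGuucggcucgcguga
Among 2370 mature names in the RefSeq table, the seed of miR-148a-3p was found in 3 names, that of miR-32-3p in 1 and that of miR-375-3p in 1. The seed of miR-32-5p was found in 6 names, among them miR-25-3p and miR-92a-3p. Counted from 1 at the 5′ end, miR-148b-3p differs from miR-148a-3p by C9U and U10C, both just past the seed. MiR-152-3p differs from it by C9U, U10G and U20G and is 1 base shorter. The authors' table lists a length of 22 nt for miR-148a-3p and miR-375-3p, the RefSeq length of both. It lists 21 nt for miR-32-3p, against 22 in RefSeq.

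The precursors show where the counted arm lies, with the mature miRNA in capitals.
MIR148A: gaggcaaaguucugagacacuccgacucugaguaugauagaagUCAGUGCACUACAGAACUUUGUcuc
MIR32: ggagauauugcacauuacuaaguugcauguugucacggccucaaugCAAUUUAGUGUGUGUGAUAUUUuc
MIR375: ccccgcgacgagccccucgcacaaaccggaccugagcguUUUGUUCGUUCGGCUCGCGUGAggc
All 3 counted miRNAs lie on the 3′ arm. MIR148A lies at chr7:25949919-25949986 (minus strand) between genes, 516 bp from the lincRNA AC010719.1 and 202254 bp from NFE2L3, the nearest protein-coding gene in GENCODE release 29. MIR32 lies at chr9:109046229-109046298 (minus strand) inside the protein-coding gene TMEM245, on the same strand, in the intron between exons 14 and 15 of the 18-exon transcript TMEM245-201. MIR375 lies at chr2:219001645-219001708 (minus strand) between genes, 1138 bp from CFAP65 and 507 bp from the antisense gene AC097468.1. The 5p arms of the 3 hairpins, miR-148a-5p, miR-32-5p and miR-375-5p, have no entry under those names and were not analysed here. This is the usual layout of the table, in which 417 of 421 hairpin names given with an arm appear with 1 arm and 4 with both.

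All 3 miRNAs were scarce in PC-3 cells, at 10.5 to 23.1 TPM, where TPM is each count divided by the library's total and scaled to 1000000. Library totals ran from 5322429 to 6014838 counts, so 1 count was worth 0.166 to 0.188 TPM. A count of 0 would allow up to 0.499 to 0.564 TPM, and all 12 values of the 3 miRNAs lay above 10 TPM, the mean level required for testing. By mean TPM, miR-32-3p ranked 194, miR-375-3p 201 and miR-148a-3p 204 among 516 catalogue entries. The most abundant miRNA, miR-21-5p, stood 6097-fold above miR-32-3p, 8008-fold above miR-375-3p and 8487-fold above miR-148a-3p. These ratios compare reads per mature miRNA of similar length, with no correction for how well each sequence is captured in a library. Summed, the 3 miRNAs took 304 and 305 counts of the first and second control library, and 205 and 290 of the first and second apelin library. Apelin 1 was the low library for this sum, at 38.5 TPM against 50.5 to 53.9 TPM elsewhere. In bulk libraries, fewer cells that make a miRNA and less of it per cell cannot be told apart.

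In the order of levels, miR-32-3p came highest in all 4 libraries, while the lowest was miR-148a-3p in 3 libraries and miR-375-3p in apelin 2. The means were 19.5 TPM for miR-32-3p, 14.9 TPM for miR-375-3p and 14.0 TPM for miR-148a-3p. The ranges over libraries overlapped for each pair, at 13.2 to 23.1, 12.1 to 17.7 and 10.5 to 17.4 TPM. In apelin 1 miR-32-3p (13.2 TPM) stood close to miR-375-3p (12.8 TPM), and the order was not tested. Among all catalogue miRNAs, miR-32-3p stood between miR-106a-5p (mean 20.1 TPM) and miR-504-5p (19.1 TPM). MiR-375-3p stood between miR-1249-3p (17.3 TPM) and miR-940 (14.5 TPM), and miR-148a-3p between miR-3909 (14.4 TPM) and miR-3934-5p (13.4 TPM). The libraries of each of these neighbours overlapped in range with those of the miRNA beside it.

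**Figure D1:**
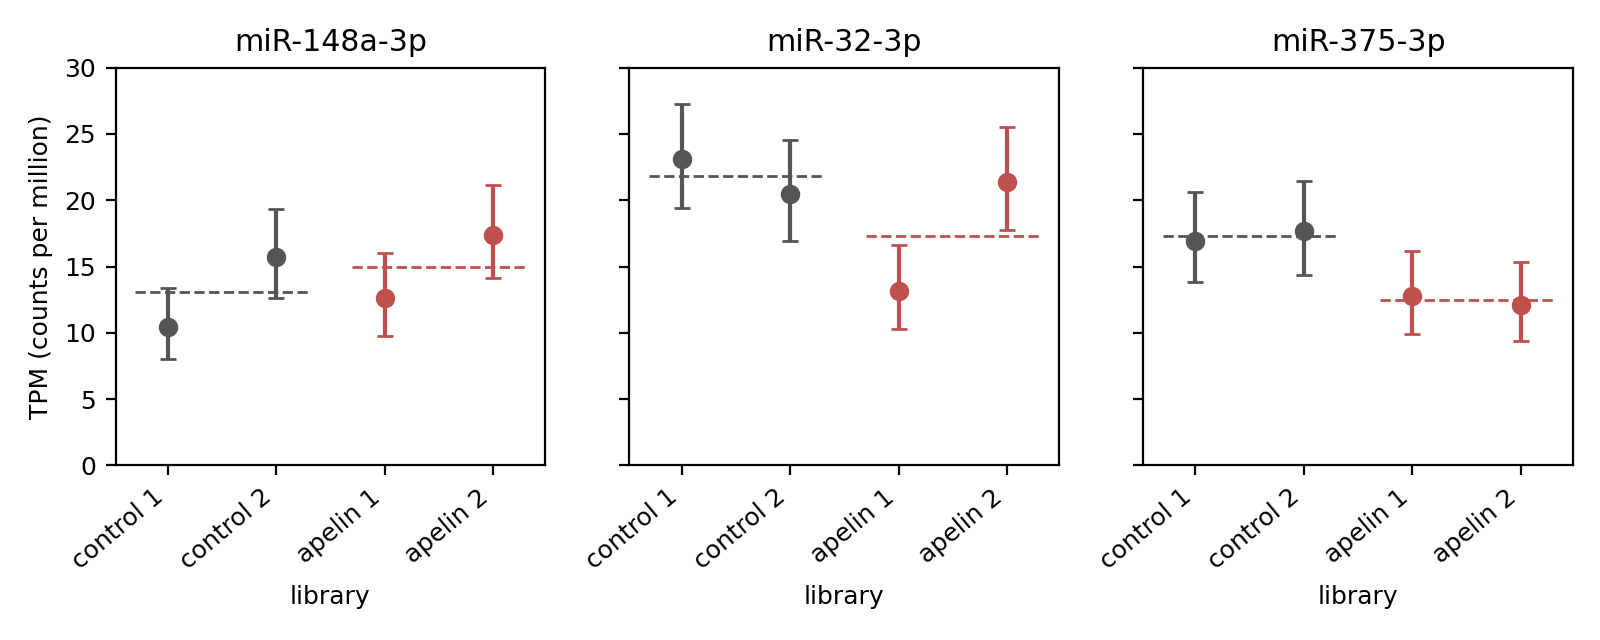
TPM of miR-148a-3p, miR-32-3p and miR-375-3p in each library (points, grey for control and red for apelin), with exact 95% Poisson intervals as bars and group means as dashed lines. Only for miR-375-3p do both apelin points lie below both control points, and for miR-32-3p apelin 1 alone is low.

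MiR-148a-3p, with DNMT1 among its reported targets, did not separate the libraries by treatment. Control 1 had 63 counts (10.5 TPM, exact 95% Poisson interval 8.05 to 13.4) and control 2 had 89 (15.7 TPM, 12.6 to 19.3). Apelin 1 had 67 (12.6 TPM, 9.76 to 16.0) and apelin 2 had 99 (17.4 TPM, 14.1 to 21.1). Both libraries numbered 2 were higher than both numbered 1, and the groups overlapped. How many tested entries share this order was not counted. The counting intervals of apelin 1 and control 2 overlapped, while those of control 1 and apelin 2 did not. The labels do not say whether the numbers mark a shared culture or day, and these intervals cover counting error only, since reads copied by PCR, with no molecular identifiers, are not independent. The control mean was 13.1 ± 3.71 TPM (SD, n = 2) and the apelin mean 15.0 ± 3.37 TPM (SD, n = 2). The log2 fold change was 0.23 (SE 0.37, 95% interval -0.98 to 1.44, edgeR adjusted p = 0.855). It did not pass the test, and its sign turned without control 1 (-0.028) and without apelin 2 (-0.13), while it was 0.50 without control 2 and 0.46 without apelin 1.

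The seed family of miR-148a was carried almost wholly by miR-148b-3p in these cells. MiR-148b-3p held 95.8% to 96.6% of the family's counts and miR-152-3p 2.38% to 3.01%. MiR-148b-3p stood at 1099 and 1202 TPM in controls 1 and 2, and at 1345 and 1502 TPM in apelin 1 and 2. Both apelin libraries lay above both controls for miR-148b-3p, as they did for 20.9% of all tested entries. Its log2 fold change of 0.33 did not pass (SE 0.14, adjusted p = 0.627 in edgeR). MiR-152-3p stood at 34.4, 36.9, 35.1 and 37.0 TPM in the same order, and its log2 fold change was 0.039 (SE 0.19, adjusted p = 0.931 in edgeR). The mean of miR-148b-3p was 91.7 times that of miR-148a-3p, and the mean of miR-152-3p was 2.56 times it.

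The share of miR-148a-3p in its seed family does not depend on how the libraries are scaled. Control 1 had 0.915% (exact Clopper-Pearson 95% interval 0.704 to 1.17) and control 2 had 1.25% (1.01 to 1.54). Apelin 1 had 0.904% (0.701 to 1.15) and apelin 2 had 1.12% (0.908 to 1.36). All 4 intervals overlapped. The mean share was 1.08% ± 0.238 (SD, n = 2) for controls and 1.01% ± 0.150 (SD, n = 2) for apelin. Apelin minus control was -0.074 percentage points, smaller than either SD (two-sided exact permutation test, p = 0.667; no p under 0.333 can be reached). The sign changed to 0.094 without control 2 and to 0.031 without apelin 1. MiR-148a-3p had 0.936 to 1.31 counts for every 100 of miR-148b-3p, from which it differs by C9U and U10C. How the authors assigned reads between such near-identical sequences is not stated in any source used, so the level of miR-148a-3p is uncertain by any share of miR-148b-3p reads counted under it.

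**Figure D2:**
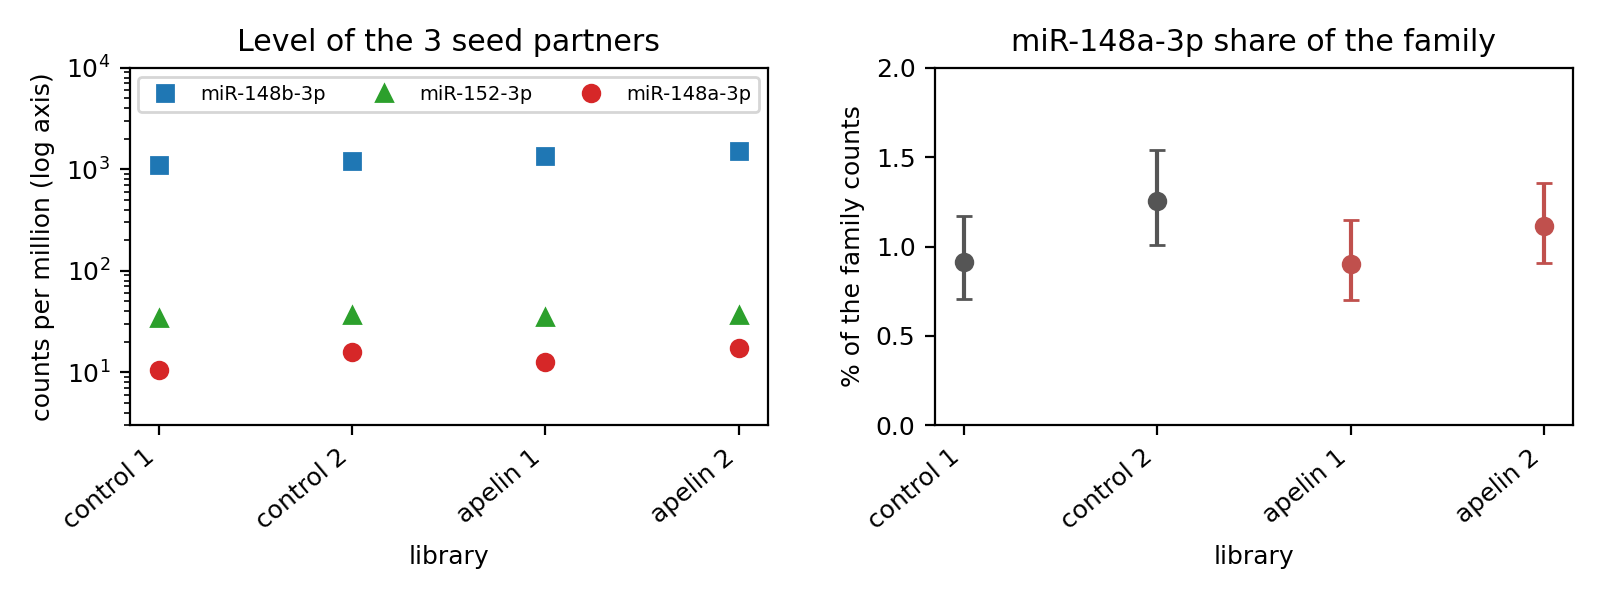
Left, counts per 1000000 of the library (log axis) of miR-148b-3p, miR-152-3p and miR-148a-3p, which share a seed, in each library. Right, the percent of the family's counts held by miR-148a-3p (grey control, red apelin) with exact 95% binomial intervals, which overlap in all 4 libraries.

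MiR-32-3p, the 3p arm from the TMEM245 intron, was low in 1 apelin library only. Control 1 had 139 counts (23.1 TPM, exact 95% Poisson interval 19.4 to 27.3) and control 2 had 116 (20.5 TPM, 16.9 to 24.6). Apelin 1 had 70 (13.2 TPM, 10.3 to 16.6) and apelin 2 had 122 (21.4 TPM, 17.8 to 25.5). Apelin 2 lay between the controls, and the intervals of the 2 apelin libraries did not overlap. The control mean was 21.8 ± 1.86 TPM (SD, n = 2) and the apelin mean 17.3 ± 5.83 TPM (SD, n = 2). The SD of the apelin pair was 33.8% of its mean, while counting alone gives 9.46% at the mean count of this miRNA. The log2 fold change was -0.31 (SE 0.40, 95% interval -1.59 to 0.98, edgeR adjusted p = 0.795), which did not pass. It was -0.81 without apelin 2, 0.019 without apelin 1, and -0.20 and -0.43 without control 1 and control 2.

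The reports on miR-32 in prostate cancer concern mainly its 5p arm, which was not analysed here. Of the 5 other names with the seed of miR-32-5p, 3 were listed, and all 3 were abundant. MiR-92a-1-3p, a copy name of miR-92a-3p whose entry may hold the same reads as that of miR-92a-3p, had a mean of 29046 TPM, miR-25-3p of 3745 TPM and miR-92b-3p of 1187 TPM. In log2 fold change they stood at -0.11 (SE 0.20), -0.057 (SE 0.091) and -0.16 (SE 0.22), and none passed in edgeR (adjusted p from 0.809 to 0.871). MiR-363-3p and miR-367-3p were not analysed here.

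MiR-375-3p was the one of the 3 whose groups did not overlap. Control 1 had 102 counts (17.0 TPM, exact 95% Poisson interval 13.8 to 20.6) and control 2 had 100 (17.7 TPM, 14.4 to 21.5). Apelin 1 had 68 (12.8 TPM, 9.92 to 16.2) and apelin 2 had 69 (12.1 TPM, 9.42 to 15.3). Both apelin libraries lay below both controls, and the counting intervals of apelin and control libraries overlapped. Over all 263 tested entries, 17.5% had both apelin libraries below both controls, and 38.4% did not overlap in either direction. The control mean was 17.3 ± 0.495 TPM (SD, n = 2) and the apelin mean 12.4 ± 0.481 TPM (SD, n = 2). The SD was 2.86% of the mean in controls and 3.87% with apelin, both below the 10.9% that counting alone gives at its mean count. The SD of this miRNA is thus smaller than the counting error of each of its values. The log2 fold change was -0.46 (SE 0.21), a ratio of 0.729 with a 95% interval of 0.455 to 1.17, and it did not pass (edgeR adjusted p = 0.627, unadjusted 0.121, 38th of 263 by p). DESeq2 gave -0.46 (SE 0.22, adjusted p = 0.139, unadjusted 0.0350), where 28.1% of tested entries had an unadjusted p under 0.05 in DESeq2. With each library left out in turn the value lay between -0.52 and -0.47. Its groups did not overlap in TPM, so a sign that stays when a library is left out adds no evidence.

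**Figure D3:**
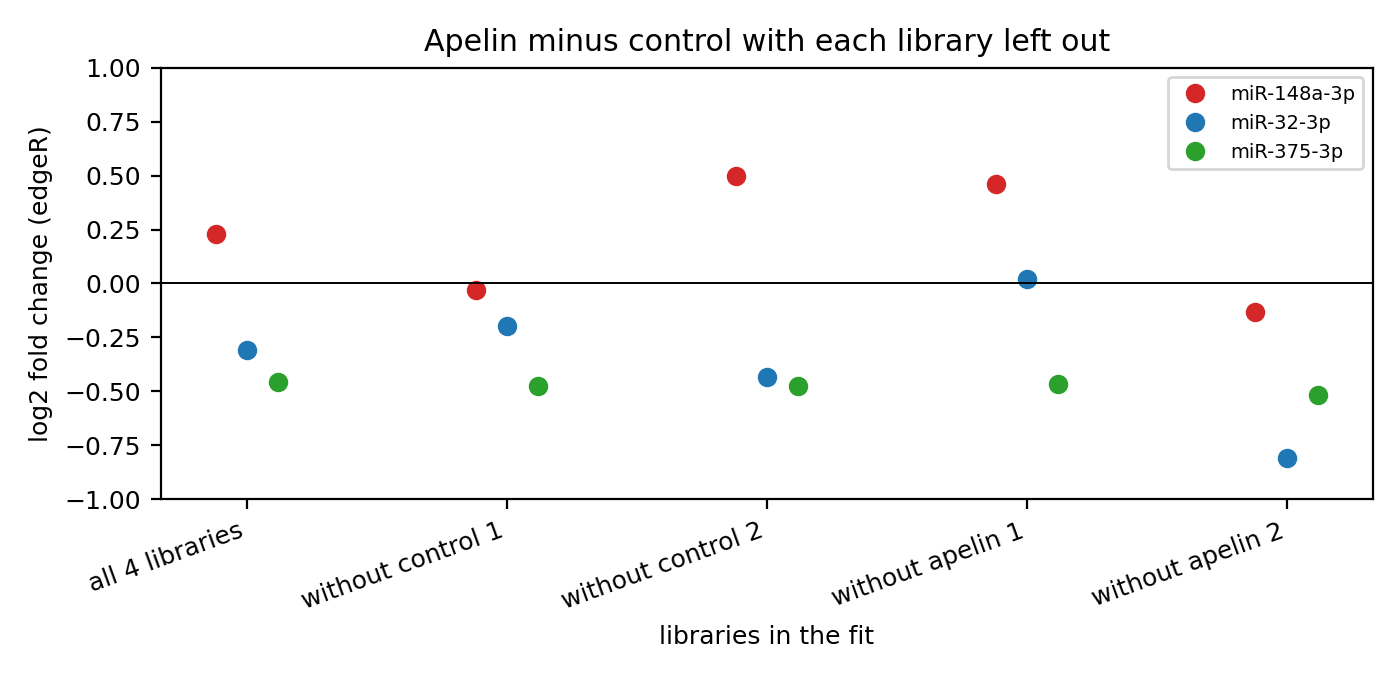
Log2 fold change (apelin minus control, edgeR) of the 3 miRNAs with all 4 libraries and with each library left out. MiR-375-3p stays between -0.52 and -0.46, while miR-148a-3p and miR-32-3p each cross 0. The groups of miR-375-3p do not overlap in TPM, so its steady sign adds no evidence.

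Across the whole table edgeR called 0 of 263 entries (0%) between apelin and control, with 15 (5.7%) at an unadjusted p under 0.05, none of them 1 of the 3. DESeq2 called 53 (20.2%), also none of the 3. Over the 207 tested catalogue miRNAs with no count of 0, edgeR called 0 (0%). There the log2 fold changes were 0.22 (SE 0.30) for miR-148a-3p, -0.32 (SE 0.30) for miR-32-3p and -0.47 (SE 0.22) for miR-375-3p, with adjusted p = 0.800, 0.688 and 0.436 in edgeR. The 95% intervals of the fit to all 263 entries allowed ratios of 0.506 to 2.71 for miR-148a-3p and 0.332 to 1.97 for miR-32-3p. Over the 207 the intervals were narrower, at -0.48 to 0.92 and -1.03 to 0.40 in log2 fold change for the same miRNAs. In the fit to all 263 they were -0.98 to 1.44 and -1.59 to 0.98. Such intervals give the changes that each fit leaves compatible with the data, and the smallest detectable change was not computed. The labels do not say that libraries came from separate cultures, so the p-values reflect only how these 4 libraries vary, and that variation may be technical.

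The tested catalogue miRNAs most like each of the 3 were found by the root mean square difference of log2(TPM + 1) over the 4 libraries, with each profile centred on its own mean, among 212 others. Nearest to miR-148a-3p were miR-181c-5p (0.060), miR-429 (0.088) and miR-27a-3p (0.092). MiR-181c-5p stood at 158 and 226 TPM in controls 1 and 2 and at 181 and 227 TPM in apelin 1 and 2, again higher in both libraries numbered 2. Nearest to miR-32-3p were miR-1304-3p (0.086), let-7g-5p (0.18) and let-7f-5p (0.19). MiR-1304-3p stood at 22.9, 22.6, 15.0 and 21.2 TPM in controls 1 and 2 and apelin 1 and 2, low in apelin 1 alone. Nearest to miR-375-3p were let-7a-5p (0.034), miR-200c-3p (0.040) and miR-181b-5p (0.048). MiR-200c-3p, a repressor of ZEB1 and ZEB2, stood at 33.3, 33.2, 25.9 and 23.0 TPM in the same order, and its log2 fold change was -0.42 (SE 0.20, adjusted p = 0.627 in edgeR). With 4 libraries such likeness is a description of these profiles only.

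Other miRNAs linked to the androgen receptor were described from lists recalled from the literature with earlier results of these data known, so their counts are no independent evidence. Of 13 miRNAs reported as raised by androgen, 9 were listed and 7 tested, and edgeR called 0 higher and 0 lower. Their median log2 fold change was 0.44, beside -0.018 over all tested entries, and it was 0.15 without apelin 2. Both apelin libraries lay above both controls for 5 of the 7 (miR-21-5p, miR-29a-3p, miR-22-3p, miR-101-2-3p and miR-19a-3p), where 20.9% of all tested entries did so. The most abundant were miR-21-5p (mean 119113 TPM, log2 fold change 0.57, SE 0.27), a repressor of PDCD4, and miR-29a-3p (26334 TPM, 0.31, SE 0.092), a repressor of collagens. Next came miR-182-5p (7724 TPM, -0.056, SE 0.21) and miR-27a-3p (5335 TPM, 0.37, SE 0.24). Their adjusted p in edgeR ran from 0.627 to 0.923. The value of miR-21-5p was 0.15 and that of miR-27a-3p 0.088 without apelin 2. These 4, named as the most abundant of the list, stood at least 380 times above miR-148a-3p. The others listed stood at 98.2 (miR-22-3p), 37.5 (miR-101-2-3p), 6.14 (miR-19a-3p), 0.236 (miR-190a-5p) and 0.0444 (miR-203a-3p) times its mean. The log2 fold change was 0.44 (SE 0.14) for miR-22-3p, 0.60 (SE 0.28) for miR-101-2-3p and 0.86 (SE 0.20) for miR-19a-3p. None of them passed (adjusted p = 0.627 in edgeR for each).

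Of 4 miRNAs reported as lowered by androgen, all 4 were tested, with 0 called in either direction and a median of 0.049. Both apelin libraries lay above both controls for 1 of the 4 (miR-99a-5p) and below them for 1 (let-7c-5p). Over all tested entries these shares were 20.9% above and 17.5% below. MiR-222-3p (50352 TPM) and miR-221-3p (43233 TPM), which act against p27, stood at 0.058 (SE 0.050) and 0.041 (SE 0.078) in log2 fold change. MiR-99a-5p (199 TPM) had 0.061 (SE 0.13) and let-7c-5p (170 TPM) -0.45 (SE 0.17). The median turned to -0.0074 without control 2 and to -0.057 without apelin 2. Of 10 miRNAs reported to act on the androgen receptor transcript, 7 were listed and all 7 tested, with 0 called in either direction and a median of 0.00089. For 1 of the 7 (miR-34a-5p) both apelin libraries lay above both controls, where 20.9% of all tested entries did so. For 3 (miR-30d-5p, miR-30c-5p and miR-205-5p) they lay below, where 17.5% of all tested entries did so. The sign of the median of this list changed with scaling, to -0.021 with library totals and -0.0049 with DESeq2 size factors. The most abundant were miR-30d-5p (30485 TPM, -0.14, SE 0.063), miR-31-5p (8162 TPM, 0.00089, SE 0.066), miR-30c-5p (5969 TPM, -0.034, SE 0.070) and miR-30b-5p (2149 TPM, 0.22, SE 0.17).

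**Figure D4:**
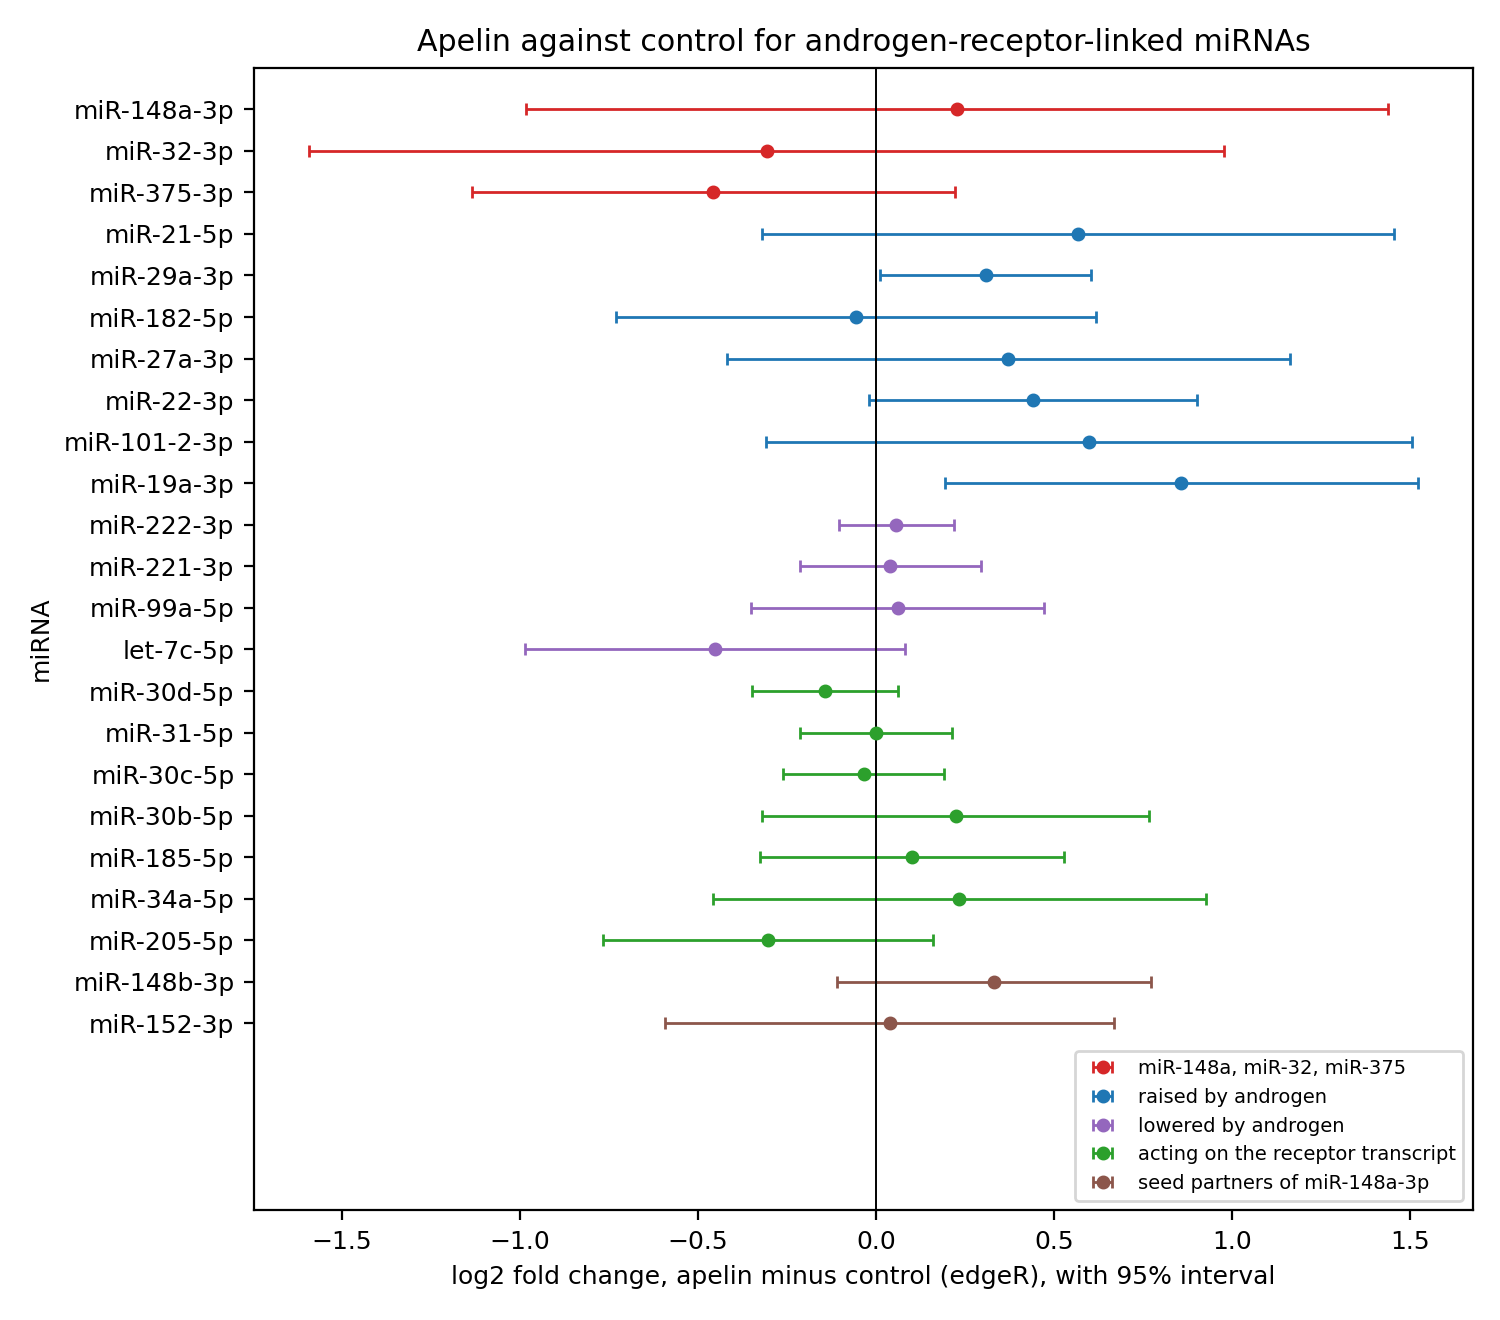
Log2 fold change (apelin minus control, edgeR) with 95% intervals for miR-148a-3p, miR-32-3p and miR-375-3p, for the tested miRNAs of 3 lists linked to the androgen receptor and for the seed partners of miR-148a-3p. None passed at an adjusted p of 0.05, and the intervals of the 3 scarce miRNAs all include 0.

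The cell type was checked with miRNA markers. Of 7 epithelial markers 6 were listed, summing to 7866 to 8386 TPM per library, led by miR-200b-3p (6635 TPM), miR-200a-3p (989 TPM), miR-429 (396 TPM) and miR-205-5p (86.2 TPM). MiR-200c-3p, one of the 3 profiles nearest to miR-375-3p, stood at 28.8 TPM. MiR-203a-3p was near 0, with 15 counts in control 1 and 0 in each other library (mean 0.623 TPM), as low as the muscle markers, and miR-141-3p was not analysed here. Of 5 neuroendocrine and neuronal markers 4 were listed, summing to 5944 to 6105 TPM, nearly all miR-183-5p (5624 TPM), with miR-9-5p at 324 TPM, miR-7-5p at 61.1 TPM and miR-129-5p at 3.46 TPM. Of 5 fibroblast and smooth muscle markers 3 were listed, summing to 4.42 to 6.49 TPM (miR-199a-3p at 3.46, miR-214-3p at 1.54 and miR-143-3p at 0.685 TPM). Of 6 blood markers 2 were listed, summing to 28.2 to 39.1 TPM, nearly all miR-486-5p (33.7 TPM), with miR-223-3p at 1.35 TPM. Of 2 endothelial markers 1 was listed, miR-126-3p at 8.55 TPM. Liver miR-122-5p stood at 3.30 TPM. Of 3 muscle markers 2 were listed, miR-1-3p and miR-133a-3p, at 1.31 and 0.600 TPM. MiR-148a-3p, miR-32-3p and miR-375-3p, at 10.5 to 23.1 TPM, thus lay between the means of miR-126-3p and miR-486-5p. In apelin 2, however, miR-126-3p reached 13.7 TPM, within that range. The part of other cell types in the levels of miR-148a-3p, miR-32-3p and miR-375-3p was not tested.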

How the data were processed

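Small RNA of PC-3 cells was sequenced in 2 control and 2 apelin libraries; per the labels' protocols, libraries were made by adaptor ligation and PCR, with a gel cut at 140 to 160 bp. Per the submitters' processing notes, Trimmomatic 0.30 and DESeq2 were used. No source used names the aligner, the miRNA catalogue or the build. The authors deposited raw counts per entry, and TPM values equal to each count per 1000000 of the library total, undivided by length (within 0.005, or 0.151 in apelin 2).

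EdgeR's quasi-likelihood test (edgeR 4.0.16, R 4.3.3, TMM scaling) was fitted to all 263 entries with a mean of 10 TPM or more, with Benjamini-Hochberg adjustment and a threshold of 0.05. Each SE is the absolute log2 fold change divided by the root of the F statistic. DESeq2 1.42.0 and limma 3.58.1 on log2(TPM + 1) were alternatives, and all were tested on simulated counts. Every miRNA chosen by name is given, with its seed partners, its 3 nearest profiles, its neighbours in level and the 4 most abundant miRNAs of each list. Where copies of a mature miRNA were listed, the entry with the most counts was used, as for miR-101-3p, taken as miR-101-2-3p. The miRNAs and lists were chosen with earlier results of these data known. Hairpin positions came from RefSeq (GRCh38.p14) and were the same in GENCODE 29. Sequences were looked up in RefSeq by miRNA name and were not compared with the reads that were counted. Other values came from Python 3.11.15 with scipy 1.17.1.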

Additional observations from a re-analysis of the deposited data

How the results depend on the processing

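EdgeR's count of called entries was 0 of 263, and also 0 with a replicate block, with DESeq2 size factors, with library totals, with a minimum of 1 TPM, and over the 207 catalogue miRNAs never at 0. It was 53 with DESeq2, 4, 5 and 4 with limma at a pseudocount of 1, 0.1 and 10, 4 at a minimum of 100 TPM and 52 with no filter. Leaving out a library gave 0 to 19. MiR-148a-3p, miR-32-3p and miR-375-3p were called under none of the 14 alternatives that tested them (a minimum of 100 TPM removed them). With all libraries kept their log2 fold changes ran from 0.12 to 0.24, from -0.37 to -0.24 and from -0.48 to -0.28. With a library left out they ran from -0.13 to 0.50, from -0.81 to 0.019 and from -0.52 to -0.47. MiR-148a-3p reversed without control 1 (-0.028) and without apelin 2 (-0.13), and miR-32-3p without apelin 1 (0.019). The difference in the family share of miR-148a-3p, -0.074 percentage points, ran from -0.24 to 0.094 with a library left out, turning positive without control 2 (0.094) and without apelin 1 (0.031).

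With a replicate block the 3 log2 fold changes were 0.22, -0.35 and -0.46 (edgeR adjusted p = 0.449, 0.616 and 0.257). Nothing in the labels pairs the libraries, although deviations of libraries with the same number had a correlation of 0.318 across miRNAs. Of the 9 most alike miRNAs, 7 were shared under the largest difference and 5 at a pseudocount of 10. List medians were refitted by choice after seeing the data. The median of miRNAs lowered by androgen ran from -0.057 to 0.058 with a library left out and reversed without control 2 (-0.0074) and apelin 2 (-0.057). That of miRNAs acting on the receptor transcript ran from -0.094 to 0.022 and reversed with library totals (-0.021), DESeq2 size factors (-0.0049), without control 1 (-0.041) and without apelin 2 (-0.094). For these reversals the cause was not tested; fits with a library left out have fewer samples, and the lone library of an arm is assumed to vary like the other group. The planned family share of miR-32 and the planned arm shares were not run, since each needs an arm that was not analysed here.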
